A study of Homo sapiens with 77 samples.

Results

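The response of the lymphoma line SuDHL10 to the menin inhibitor VTP50469 was read from 4 RNA-seq libraries, 2 from cells treated with VTP50469 and 2 from cells given the solvent DMSO as control. The libraries were chosen by their labels, which name the line, the treatment and the replicate number, and they are 4 of the 77 samples of the series and 4 of the 16 libraries of its drug combination experiment. SuDHL10 is an established diffuse large B cell lymphoma (DLBCL) line with a mutant EZH2. Its other 4 libraries, 2 from cells treated with EPZ-6438 (tazemetostat, an inhibitor of EZH2) and 2 from cells treated with both drugs, shared the model. KARPAS422, a further DLBCL line that also has a mutant EZH2, had the same 4 treatments and gave the comparison with another line. The study's legend gives a day of treatment with a nanomolar dose for SuDHL10 and a day more for KARPAS422, so line and time cannot be told apart between them. The study asked whether blocking menin changes how EZH2-mutant lymphoma cells respond to EZH2 inhibition, and the libraries with VTP50469 alone show what the menin inhibitor did by itself. No source states that the replicates were separate cultures, so the p-values measure the spread between these libraries, which may be technical.

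Menin, the product of MEN1, is a scaffold protein that joins the histone methyltransferase MLL1, encoded by KMT2A, and the chromatin-binding protein LEDGF, encoded by PSIP1, to their sites on chromatin. MLL1 places methyl groups on lysine 4 of histone H3, a mark of active promoters, whereas EZH2, the catalytic subunit of PRC2, places the repressive mark on lysine 27 of the same histone. VTP50469 occupies the pocket of menin in which MLL1 binds. In leukemias with MLL1 fusions, drugs of this class are known for lowering HOXA genes and MEIS1. In a germinal center type B cell lymphoma no fusion is present, and the genes under menin control are less well known.

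Counts per library were 19840876 and 23396505 in the controls and 31573027 and 10267526 with VTP50469, so the second VTP50469 library carried the largest counting error of the 4. Of 21455 genes in the table, 11409 had enough counts in SuDHL10 to be tested. Levels are given in CPM, the counts of a gene divided by the library total scaled by TMM and given per 1000000, and changes as log2 fold changes of VTP50469 over control with their standard error (SE). Adjusted p-values are from edgeR's quasi-likelihood test with the replicate number as a block, and a gene was called where its adjusted p was under 0.1 and its fold above 1.5. All 12 B cell markers were detected, with summed levels of 8850 to 10100 CPM over the 8 SuDHL10 libraries. The erythroid and the fibroblast and endothelial markers summed to at most 1.04 and 3.48 CPM. The 13 epithelial markers summed to 46.1 to 58.1 CPM, of which KRT10 alone gave 45.3 to 56.4 CPM, and the other 12 had means under 1 CPM.

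VTP50469 alone changed few genes in SuDHL10, and most changes were small. With the block, 98 genes were called higher (0.859% of those tested) and 18 lower (0.158%), and without a minimum fold 247 genes (2.16%) were higher and 216 (1.89%) lower at an adjusted p under 0.1. The split between the directions depends on the scaling and on the libraries in the model. It was 661 higher and 132 lower (83.4% higher, against 53.3%) when libraries were scaled by their totals alone, which moved the median of all genes to 0.06. It was 181 and 130 with RLE size factors (58.2% higher), and 61 and 93 with DESeq2 (39.6%), which changes the model as well as the scaling. With TMM and the block kept, it was 937 and 1075 in the 2 groups alone (46.6% higher). Without the libraries with both drugs it was 604 and 702 (46.2%). These counts rest on the pairing of libraries by number: edgeR without the block called 0 genes in either direction, with 724 genes at an unadjusted p under 0.05, and DESeq2 on these 2 groups without the block called 2 higher and 3 lower. The replicate number itself separated more genes than the drug, with 4662 genes (40.9%) at an adjusted p under 0.1. Without the first VTP50469 library, the deepest, 22 genes were called higher and 5 lower, and without the second 36 and 9. Without the first control library 50 genes were called higher and 15 lower, and without the second 68 and 15.

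The called genes lay at the low end of expression. The median mean level of the genes called higher was 4.26 CPM, and 38 of the 98 exceeded 5 CPM. At an adjusted p under 0.1 alone, the genes that rose had a median level of 16.3 CPM and a median log2 fold change of 0.49, and the genes that fell a median level of 99.4 CPM and a median of -0.32. The same tilt held over all genes tested, whose median log2 fold change went from 0.17 below 1 CPM and 0.14 between 1 and 3 CPM to -0.06 at 100 CPM and above. The deepest and the shallowest library were both in the VTP50469 group, and the part of library depth in this tilt was not tested. After all SuDHL10 libraries were thinned to the smallest total, 47 genes were called higher and 9 lower, of which 36 and 8 were among those called from the full counts.

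**Figure D1:**
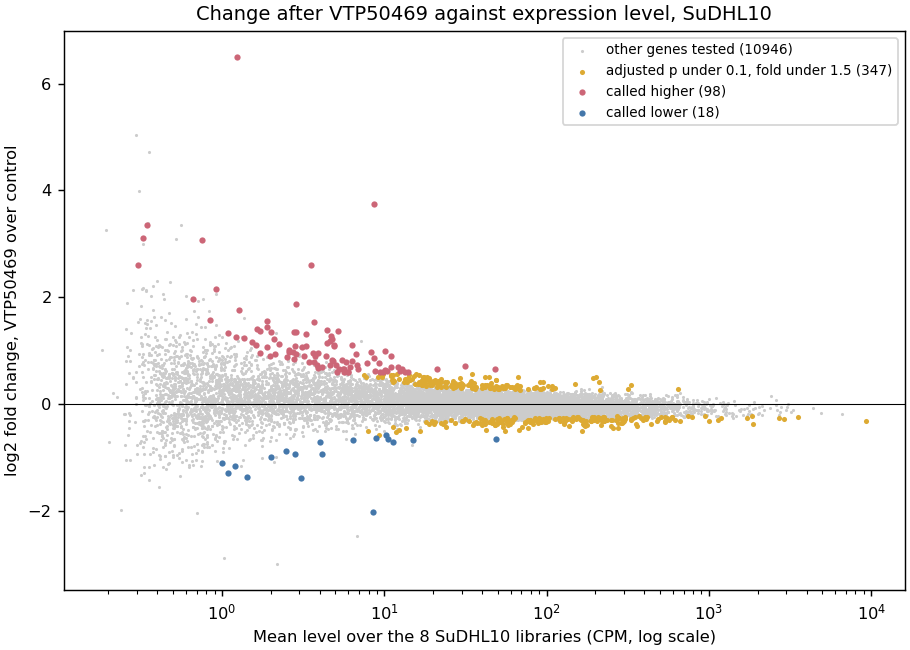
Log2 fold change of VTP50469 over control (vertical axis) against the mean level over the 8 SuDHL10 libraries in CPM (horizontal axis, log scale) for the 11409 genes tested, 1 point per gene. The 98 genes called higher (red) and 18 called lower (blue) sit mostly below 10 CPM, and genes that passed the adjusted p with a smaller fold (yellow) lie mostly above it.

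The genes that rose with the smallest p-values were TSC22D1, NREP, TRIB2 and NLRP4. TSC22D1, a leucine zipper protein induced by TGF-beta and glucocorticoids (chr13:44432143-44577147, hg38, minus strand), was at 18.2 and 20.9 CPM in the controls and at 31.4 and 32.5 CPM with VTP50469, a log2 fold change of 0.71 (SE 0.089, adjusted p = 0.00135). NREP, a neuronal regeneration related protein (chr5:111662621-111997464, minus strand), went from 29.2 and 33.4 CPM to 46.7 and 50.8 CPM, a change of 0.65 (SE 0.082, adjusted p = 0.00135). TRIB2, a pseudokinase that directs substrates to a ubiquitin ligase (chr2:12716910-12742734, plus strand), went from 142 and 141 CPM to 208 and 195 CPM, a change of 0.51 (SE 0.071, adjusted p = 0.00279). In these genes both VTP50469 libraries stood above both controls, as in 18.6% of all genes tested, and the gap between the groups was larger than the gap within either. NLRP4, an NLR family protein whose gene overlaps NLRP11, rose from 13.9 and 14.9 CPM to 22.1 and 23.5 CPM (log2 fold change 0.65). TSC22D1, NREP, TRIB2 and NLRP4 passed the adjusted p with any 1 of the 4 libraries left out.

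Further genes rose from lower levels. PTMS (parathymosin, a small acidic nuclear protein whose gene overlaps MLF2) was at 1.07 and 1.35 CPM in the controls and at 3.35 and 2.70 CPM with VTP50469 (log2 fold change 1.37, SE 0.24, adjusted p = 0.0105). PAK1, a kinase downstream of the small GTPases RAC and CDC42, went from 0.374 and 0.349 CPM to 1.4 and 1.25 CPM, and CD6, a lymphocyte surface receptor, from 0.481 and 0.480 CPM to 1.34 and 1.45 CPM. The groups do not overlap in any of these genes, as in 18.6% of all genes tested on the higher side, but at such levels the fold rests on few reads. DSTN, an actin-depolymerizing factor, rose by 0.86 from 4.44 and 5.32 CPM to 8.38 and 9.07 CPM. At higher levels, IDS, a lysosomal sulfatase, rose from 158 and 188 CPM to 230 and 255 CPM (log2 fold change 0.49), and GNG2, a G protein subunit, from 22.5 and 28.8 CPM to 35.9 and 38.8 CPM (log2 fold change 0.55).

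EPHA3, an ephrin receptor tyrosine kinase, led the genes that fell. Its level (chr3:89107621-89482134, plus strand) was 53.8 and 62.1 CPM in the controls and 35.1 and 37.5 CPM with VTP50469, a log2 fold change of -0.66 (SE 0.083, adjusted p = 0.00135). HTR3A, a serotonin-gated ion channel subunit (chr11:113975075-113990313, plus strand), fell from 214 and 180 CPM to 146 and 132 CPM, a change of -0.50 (SE 0.074, adjusted p = 0.00403). TOX, a nuclear HMG-box protein known from lymphocyte development, fell from 82.5 and 88.8 CPM to 60.5 and 60.9 CPM, a change of -0.49 (SE 0.077, adjusted p = 0.00532). The controls stood above both VTP50469 libraries in each of the 3, as in 17.5% of all genes tested. APLP2, a relative of the amyloid precursor protein, fell by 0.45 on the log2 scale, BASP1, a membrane-bound signaling protein, by 0.46, and RRAS2, a RAS family GTPase, by 0.50. MAP4K4, a kinase of stress signaling, fell from 408 and 413 CPM to 306 and 313 CPM, a change of -0.41 (SE 0.066, adjusted p = 0.00626). CCDC30, a coiled-coil protein gene that overlaps PPCS, fell from 5.51 and 5.45 CPM to 2.23 and 1.74 CPM (log2 fold change -1.39). EPHA3 and CCDC30 passed the adjusted p with any 1 of the 4 libraries left out, whereas HTR3A, TOX, APLP2, BASP1 and MAP4K4 each passed with 3 of the 4 left out in turn.

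**Figure D2:**
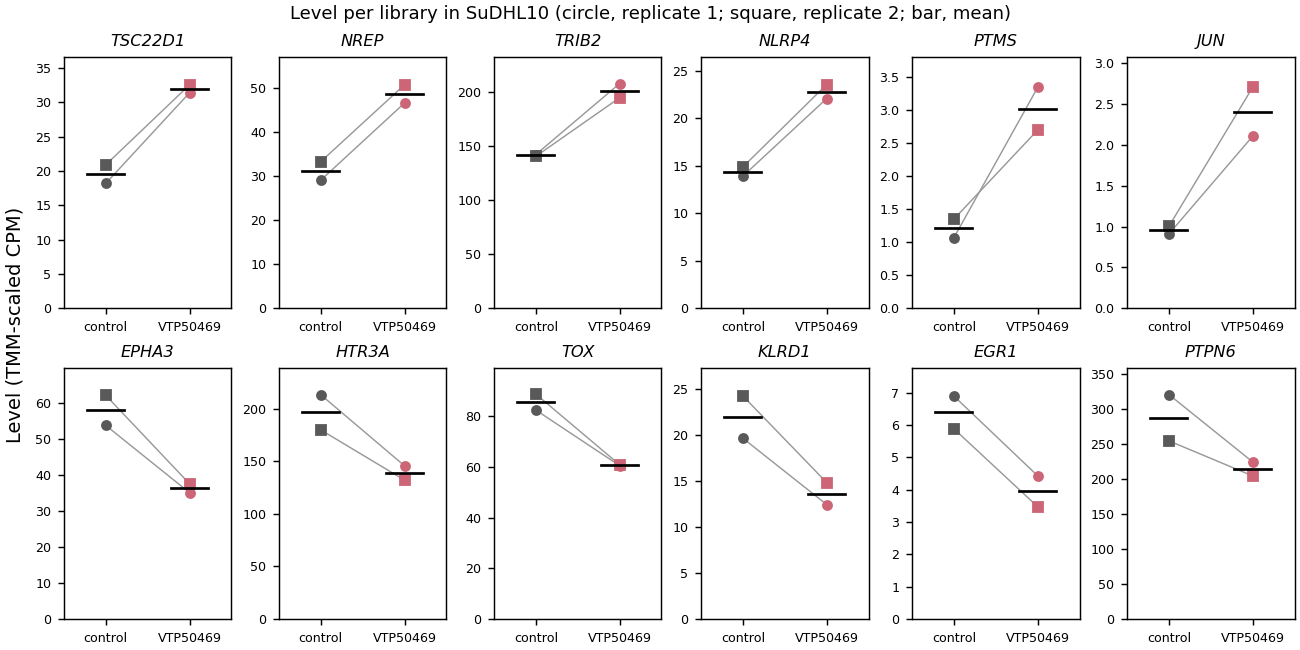
Level in TMM-scaled CPM (vertical axes, from 0) of 12 genes in the control and VTP50469 libraries of SuDHL10, with a circle for replicate 1, a square for replicate 2, lines between libraries of the same number and a bar at each mean. The 6 genes in the upper panels are higher and the 6 in the lower panels lower with VTP50469, with no overlap between the groups, a state reached by 18.6% of all genes tested on the higher side and 17.5% on the lower.

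Immunoglobulin constant genes were among those called lower. IGHG4 went from 12.9 and 5.01 CPM to 2.61 and 0.868 CPM, IGKC from 1.55 and 1.96 CPM to 0.733 and 0.868 CPM, and IGLC3 from 3.16 and 5.97 CPM to 2.39 and 2.22 CPM. These genes have near-identical neighbors whose reads the counting may have split, and the controls of IGHG4 differed from each other by more than 2 times. Their calls are uncertain for that reason.

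A few called genes were set by a single library. PARN, a poly(A)-specific ribonuclease, was at 0.0535 and 0 CPM in the controls, 0.0638 CPM in the first VTP50469 library and 5.40 CPM in the second. YWHAE, a 14-3-3 protein, was at 1.28 and 1.79 CPM in the controls, 32.5 CPM in the first VTP50469 library and 1.06 CPM in the second, and LSM14A, an RNA-binding protein, showed 11.9 CPM in the first VTP50469 library against 0.963 to 1.54 CPM in the other 3. The second EPZ-6438 library was also high in these genes, at 4.01, 29.6 and 7.83 CPM, so the high libraries did not follow VTP50469. In 4 of the 98 genes called higher the VTP50469 libraries differed by more than 5 times.

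The targeted complex itself did not pass the test at the RNA level. MEN1 was at 98.4 and 82.5 CPM in the controls and at 91.3 and 90.9 CPM with VTP50469, a log2 fold change of 0.0098 (SE 0.081, adjusted p = 0.963), and KMT2A was at 160 and 174 CPM against 166 and 167 CPM. An inhibitor blocks the protein, so the level of its RNA does not check the treatment. Of 10 tested members of the menin-MLL complex, 0 passed in either direction, with changes from -0.14 to 0.14. The genes known as MLL1 targets in leukemia likewise had 0 of 14 members past the threshold, with a median of -0.04. Over all genes tested, 2.16% rose and 1.89% fell at that threshold. In lists this short such shares make 0 a likely count, so it says little about the lists. PSIP1 was at 154 and 178 CPM against 165 and 185 CPM, and EZH2 at 297 and 341 CPM against 284 and 293 CPM. Neither passed with VTP50469 alone (log2 fold change 0.08 and -0.14). In PRC2, again a short list, 0 of 10 tested members passed. Of the other genes the study singled out, the serine synthesis enzyme PSAT1 changed by 0.16, the glutamine transporter SLC1A5 by -0.04, the transcription factors MYB and IRF5 by 0.17 and -0.01, and the surface protein CD24 by 0.10. None of these passed, with adjusted p-values from 0.249 to 0.966.

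Partners of MLL1 in leukemia fusions and in the DOT1L and elongation complexes moved in 2 cases. AFF1, a scaffold of the super elongation complex (its gene overlaps an unnamed model), was at 2.03 and 2.49 CPM in the controls and at 4.49 and 4.15 CPM with VTP50469 (log2 fold change 0.96, SE 0.20, adjusted p = 0.0259). MLLT3, a reader of acylated histones, went from 1.98 and 2.31 CPM to 3.60 and 3.76 CPM (log2 fold change 0.79, adjusted p = 0.0642). In both the VTP50469 libraries lay above the controls, as in 18.6% of all genes tested. The other 8 of the 10 tested members did not pass, where 2.16% of all genes tested rose at an adjusted p under 0.1, and the 2 became 0 with DESeq2 and 0 or 1 with any 1 of the 4 libraries left out. No member fell, and the median over the list was -0.08 against 0.00019 over all genes tested.

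In B cell receptor signaling, 7 of 32 tested members (CD22, CD79B, PTPN6, SYK, INPP5D, PIK3CD and RASGRP3) fell at an adjusted p under 0.1, where 1.89% of all genes tested did, and 0 rose. None reached a fold of 1.5. The list had a median log2 fold change of -0.15. The list holds activators and inhibitors of the receptor, and both kinds fell. PTPN6, the phosphatase SHP1 that dampens the receptor, was at 320 and 254 CPM in the controls and at 224 and 204 CPM with VTP50469 (log2 fold change -0.42, SE 0.080, adjusted p = 0.0217). CD22, an inhibitory co-receptor, was at 1887 and 1788 CPM against 1563 and 1517 CPM (log2 fold change -0.25). CD79B, a chain of the receptor itself, was at 377 and 282 CPM against 292 and 248 CPM, so its groups overlapped. SYK, the kinase that the receptor recruits, changed by -0.23, the lipid phosphatase INPP5D by -0.24, the lipid kinase PIK3CD by -0.26 and the RAS activator RASGRP3 by -0.24. The libraries of the groups did not overlap in 14 of the 32 genes on the lower side, against 17.5% of all genes tested. Over all alternatives, the count of members that fell at an adjusted p under 0.1 ran from 0 to 15. The count was 2 with RLE size factors, 2 with library totals alone, 2 with DESeq2 and at most 1 with any 1 of the 4 libraries left out, whereas the list's median stayed between -0.18 and -0.09 over all alternatives.

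The B cell identity factors PAX5 and POU2AF1 fell slightly while ID2 and CD38 rose. PAX5, the transcription factor that maintains B cell identity, was at 308 and 299 CPM against 244 and 250 CPM (log2 fold change -0.30, adjusted p = 0.0525), and POU2AF1, a coactivator of octamer factors, changed by -0.25. ID2, an inhibitor of E proteins, went from 5.78 and 5.01 CPM to 8.57 and 7.24 CPM (log2 fold change 0.57), and CD38, an ectoenzyme of germinal center and plasma cells, from 17.7 and 18.4 CPM to 23.2 and 24.0 CPM (log2 fold change 0.40). None of the 4 had overlapping groups, a state reached by 18.6% of all genes tested on the higher side and 17.5% on the lower. This adds little once a gene has passed, since 231 of the 247 genes that rose and 205 of the 216 that fell did not overlap. None of the 4 reached a fold of 1.5. In the B cell identity list, 1 of 18 tested members rose and 2 fell. In the germinal center list, 1 of 26 members rose and 2 fell, and among 12 B cell markers 3 fell. Over all genes tested, 2.16% rose and 1.89% fell. With DESeq2, 0 members of the germinal center list rose and 2 fell, and 2 B cell markers fell. These counts are too small to show a shift of B cell identity. In the interferon response, MHC class II and cytosolic ribosomal protein lists, 0 members passed in either direction, of 40, 5 and 38 tested, against the same shares.

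Immediate early genes, which signaling switches on within minutes, moved in both directions, with 3 of 30 higher and 4 lower at an adjusted p under 0.1, where 2.16% and 1.89% of all genes tested passed. These counts were 1 and 1 with DESeq2 and at most 1 in each direction with any 1 of the 4 libraries left out. Over all alternatives, 0 to 4 members rose and 0 to 7 fell. JUN, a subunit of AP-1, was at 0.909 and 1.00 CPM in the controls and at 2.1 and 2.7 CPM with VTP50469 (log2 fold change 1.21, SE 0.28, adjusted p = 0.0399). EGR1, a zinc finger factor downstream of ERK, fell from 6.90 and 5.89 CPM to 4.43 and 3.47 CPM (log2 fold change -0.65, SE 0.15, adjusted p = 0.0463). The groups do not overlap in either gene, as in 18.6% of all genes tested on the higher side and 17.5% on the lower. JUN and EGR1 moved in opposite directions. JUND and KLF6 rose by 0.29 and 0.28, and IER2 and the ERK pathway inhibitors DUSP6 and SPRED2 changed by -0.41, -0.38 and -0.34.

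Smaller groups of genes passed in other lists. Of 40 genes of G2 and mitosis, 4 rose and 0 fell at an adjusted p under 0.1, against 2.16% and 1.89% of all genes tested, with a median of 0.09. Over all alternatives, 0 to 10 members of that list rose and 0 fell. CENPF, a kinetochore protein, went from 275 and 312 CPM to 356 and 392 CPM (log2 fold change 0.35), CENPE, a kinetochore motor, rose by 0.38, TOP2A, a DNA topoisomerase, by 0.27 and TTK, a checkpoint kinase, by 0.28. With any 1 of the 4 libraries left out, 0 to 2 of these members passed. In glycolysis and hypoxia, the enzymes ENO1, PKM and PFKP fell by 0.29, 0.26 and 0.25 on the log2 scale, and VEGFA and the MYC antagonist MXI1 rose by 0.35 and 0.45, leaving 3 lower and 2 higher of 32, of which at most 1 in each direction passed with any 1 of the 4 libraries left out. Over all alternatives, 0 to 14 members of the glycolysis and hypoxia list fell and 0 to 3 rose. SLC7A11, the cystine transporter and a target of ATF4, rose from 44.3 and 61.0 CPM to 65.9 and 84.0 CPM (log2 fold change 0.51, adjusted p = 0.0175). In the ATF4 and amino acid synthesis list it was the 1 riser of 25 tested members, 1 fell, and the list median was -0.03. BMF, a pro-apoptotic BH3 protein, rose from 73.2 and 71.0 CPM to 93.8 and 98.8 CPM (log2 fold change 0.41, adjusted p = 0.0222). In the BCL2 family list it was the 1 riser of 19 tested members, 0 fell, and the list median was -0.11. NFKB1 fell from 215 and 206 CPM to 172 and 167 CPM (log2 fold change -0.31, adjusted p = 0.0390). It was 1 of 2 members of the NF-kB list that fell of 27, against 1.89% of all genes tested, with a list median of -0.12.

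**Figure D3:**
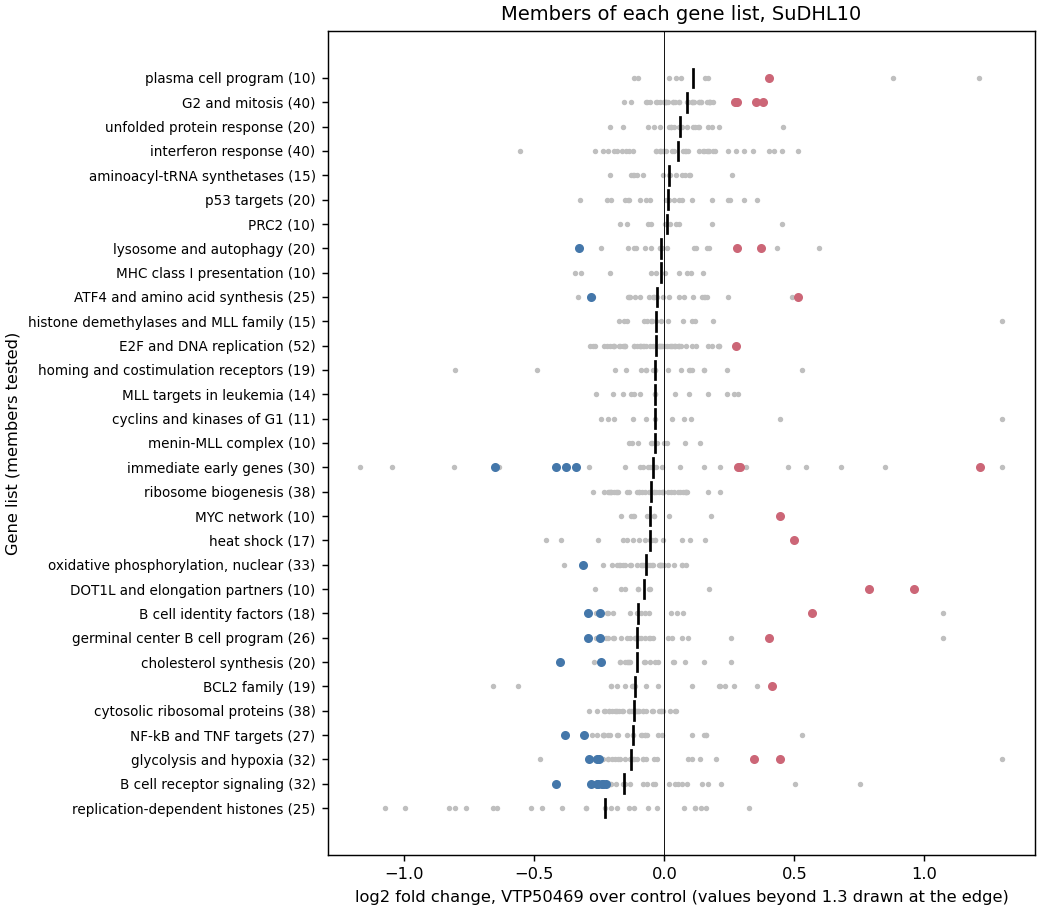
Log2 fold change of VTP50469 over control (horizontal axis, values beyond 1.3 drawn at the edge) for the tested members of each gene list with at least 10 of them, 1 line per list with the number tested. Points in red rose and points in blue fell at an adjusted p under 0.1, points in gray did not pass, and black bars mark list medians, with B cell receptor signaling at -0.15 and G2 and mitosis at 0.09.

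A summed level of T and NK cell markers was lower with VTP50469, at 30.6 and 34.6 CPM in the controls against 20 and 21.3 CPM. All 3 tested markers fell, KLRD1 from 19.7 and 24.3 CPM to 12.5 and 14.9 CPM (log2 fold change -0.67, adjusted p = 0.00532), TRAC from 9.31 and 8.68 CPM to 6.44 and 5.69 CPM, and CD3E from 1.34 and 1.13 CPM to 0.574 and 0.386 CPM. The other 11 of the 14 markers had a mean under 1 CPM, and CD2 and CD7 had 0 counts in all 8 libraries. KLRD1, a subunit of an NK cell receptor, passed with any 1 of the 4 libraries left out. The 12 myeloid markers, 9 of them under 1 CPM and 3 at 0, summed to 20.9 and 20.4 CPM in the controls and to 24.5 and 22.9 CPM with VTP50469, and the part of either set in other results was not tested. SuDHL10 is a lymphoma line, and its T and NK cell sum is mostly KLRD1 and TRAC, so the sum is no measure of T and NK cells. Which cells held these RNAs was not tested.

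The VTP50469 change was also measured in the presence of EPZ-6438, from the 2 libraries with both drugs and the 2 with EPZ-6438 alone. These 4 libraries are in neither group of the comparison above, but they share the model's filter, dispersion and replicate terms, and the calls without EPZ-6438 number 161 higher and 32 lower when the libraries with both drugs are left out and 161 and 30 when those with EPZ-6438 alone are. Of the 98 genes called higher without EPZ-6438, 59 (60.2%) were above EPZ-6438 in both pairs of libraries with both drugs, against 34.4% of all genes tested, and 39 rose at an adjusted p under 0.1. Of the 18 called lower, 12 (66.7%) were below in both pairs, against 32.9% of all genes, and 11 fell. The called genes lay at low levels, and the shares over all genes are not matched for level. At an adjusted p under 0.1 alone, 72 of the 247 genes that rose (29.1%) also rose with EPZ-6438 present, where 17.1% of all genes did, and 98 of the 216 that fell (45.4%) also fell, where 16.1% did. In the opposite direction, 28 and 20 passed.

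TSC22D1 was at 25.5 and 27.5 CPM with EPZ-6438 and at 46.1 and 47.9 CPM with both drugs, a change of 0.83 (SE 0.084), and TRIB2 at 182 and 185 CPM against 281 and 281 CPM, a change of 0.61 (SE 0.070). Their changes with and without EPZ-6438 did not differ at the threshold (adjusted p = 0.566 and 0.512), with a difference of 0.11 (SE 0.12) for TSC22D1 and of 0.10 (SE 0.10) for TRIB2. EPHA3 fell further with EPZ-6438 present, from 65.7 and 81.6 CPM to 26.8 and 29.8 CPM, a change of -1.38 against -0.66, and this difference passed (adjusted p = 0.00264). HTR3A fell from 217 and 185 CPM to 130 and 123 CPM, and PAK1, PTMS and CD6 rose again by 0.96, 0.73 and 0.99.

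Other genes changed differently when EPZ-6438 was present. The difference between the VTP50469 changes passed for 194 genes in the higher direction (1.7% of those tested) and for 314 in the lower (2.75%), in all 508, but for 6 without the block, and at an adjusted p under 0.1 alone for 11.6% of genes in the higher and 10.7% in the lower direction. It passed for 151 genes without the first VTP50469 library, 227 without the first control, 281 without the second EPZ-6438 library and 170 without the second with both drugs, but for 957 without the first EPZ-6438 library and 1062 without the first with both drugs. EGR1 was at 25.2 and 24.8 CPM with EPZ-6438 and at 6.87 and 6.33 CPM with both drugs, a change of -1.92 against -0.65 without it. JUN was at 12.2 and 9.5 CPM with EPZ-6438 against 5.06 and 4.41 CPM with both drugs, so its change was -1.19 here and 1.21 without. SLC7A11 went from 67.3 and 95.1 CPM to 57.4 and 60.3 CPM, a fall of 0.45 where it had risen. JUN and SLC7A11 were picked for a rise that the difference subtracts, so its negative sign is favored in advance. In EGR1 and JUN the EPZ-6438 libraries stood above the controls, and the libraries with both drugs lay between them or near the controls. PFKFB4, a regulator of glycolysis, was at 6.28 to 8.50 CPM in the control and VTP50469 libraries, at 70.2 and 54.2 CPM with EPZ-6438 and at 15.2 and 17 CPM with both drugs. COL5A1, a collagen chain, was at 40.2 to 44.6 CPM in the control and VTP50469 libraries, at 170 and 142 CPM with EPZ-6438 and at 58.6 and 55.5 CPM with both drugs. BNIP3, a hypoxia-induced mitochondrial protein, was at 160 and 172 CPM with EPZ-6438 but at 60.4 and 61.3 CPM with both drugs, below the controls at 72.5 and 72.4 CPM and level with VTP50469 alone at 62.3 and 58.4 CPM. With EPZ-6438 present BNIP3 and COL5A1 each fell by 1.45 on the log2 scale, and their changes without it (-0.26 and -0.06) did not pass.

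MEN1 was among the genes that differed. It was at 82.0 and 70.9 CPM with EPZ-6438 and at 118 and 112 CPM with both drugs, a change of 0.59 (SE 0.081) against 0.0098 with VTP50469 alone, and the difference of 0.58 had an adjusted p of 0.00812. With both drugs MEN1 was above every other SuDHL10 library.

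**Figure D4:**
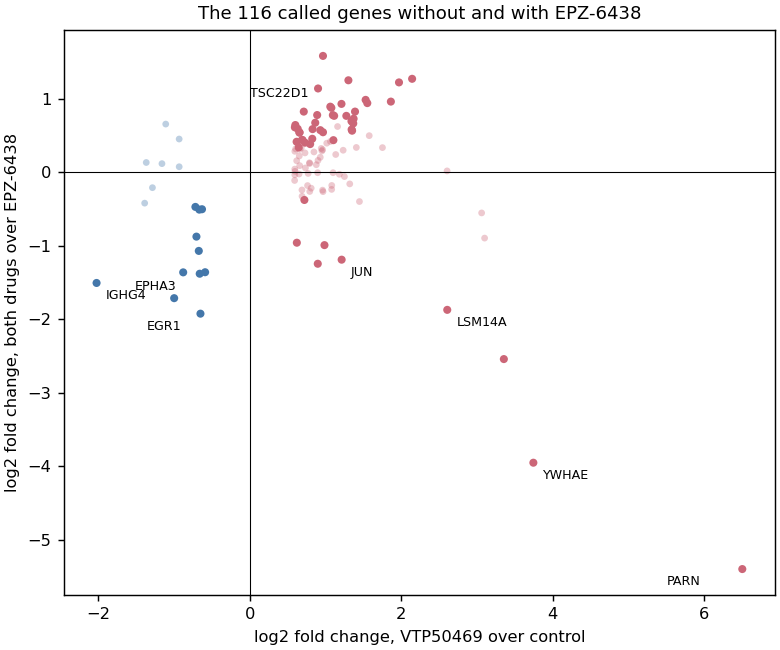
Log2 fold change of both drugs over EPZ-6438 (vertical axis) against that of VTP50469 over control (horizontal axis) for the 116 called genes, with red points called higher and blue points called lower without EPZ-6438. Full-colored points also passed an adjusted p of 0.1 with EPZ-6438 present and pale points did not, and PARN, YWHAE and LSM14A, each set by single libraries, lie far to the lower right.

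In KARPAS422, which has control libraries of its own, VTP50469 called 410 genes higher (3.1% of 13223 tested) and 36 lower (0.272%), after the longer treatment. Of the 98 genes called higher in SuDHL10, 94 were tested in KARPAS422, and 75 of these (79.8%) were above 0 there, against 52.7% of all genes tested in both lines. Of the 14 called lower that were tested, 7 (50%) were below 0, against 47.3%. The genes called higher lay low in SuDHL10, at a median of 4.26 CPM. The shares over all genes are not matched for level, and none was computed among genes of like level. At an adjusted p under 0.1, 41 genes passed in both lines in the same direction, 30 higher and 11 lower, where 3.9% of the genes tested in KARPAS422 passed as higher and 0.484% as lower, and 27 of them also passed in that direction with EPZ-6438 present. These genes are named here for their values in both lines. TSC22D1 rose by 0.90 in KARPAS422 (adjusted p = 0.0110), PTMS by 0.90, ID2 by 1.48, BMF by 2.32 and CD38 by 1.99, and TOX, NFKB1 and EGR1 changed by -0.52, -0.62 and -0.69. For BMF and CD38 the change was larger in KARPAS422 (adjusted p of the difference 0.0241 and 0.00747), whereas for TSC22D1 the difference between the lines did not pass (adjusted p = 0.824).

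The opposite direction was seen in 9 of the 210 genes that fell in SuDHL10 at an adjusted p under 0.1 and were tested in KARPAS422. These 9 rose in KARPAS422 at that threshold, a share close to the 3.9% of all genes tested there. The difference between the lines passed in all 9, but they were picked for opposite directions in the same libraries, so this adds no support. Among the 9, MAP4K4 had the smallest p in SuDHL10, with changes of -0.41 in SuDHL10 and 0.90 in KARPAS422 (adjusted p of the difference = 0.00137). IGKC and IGHG4 were also among them. Of the 242 genes that rose in SuDHL10 and were tested in KARPAS422, 0 passed in the lower direction there, where 0.484% of all genes tested did.

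The lines differed in the interferon response. Of 40 tested genes of the list, 35 rose and 0 fell in KARPAS422, with a median log2 fold change of 1.17, whereas 0 passed in SuDHL10, where changes ran from -0.55 to 0.51 with a median of 0.05. The difference itself passed at an adjusted p under 0.1 for 23 of the 40, all with the smaller change in SuDHL10, against 1.08% of all genes tested in that direction and 0.356% in the other. RNF213, a ubiquitin ligase induced by interferon that is not in the list, was at 112 and 117 CPM in the SuDHL10 controls and at 122 and 114 CPM with VTP50469, but at 23.4 and 24.4 CPM in the KARPAS422 controls and 119 and 122 CPM with VTP50469. MX2, an antiviral GTPase, changed by 0.07 in SuDHL10 and 1.75 in KARPAS422, OAS3, a sensor of double-stranded RNA, by -0.18 and 1.54, and LGALS3BP, a secreted glycoprotein, by -0.01 and 2.12. Over all genes the difference between the lines passed for 46 in the direction of SuDHL10 (0.335%) and for 141 in that of KARPAS422 (1.03%). In all it passed for 187 genes, but for 82 without the first SuDHL10 control, 84 and 117 without the first and the second SuDHL10 VTP50469 library, and 101 and 416 without the first and the second KARPAS422 control. It passed for 596 without the second KARPAS422 VTP50469 library.

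**Figure D5:**
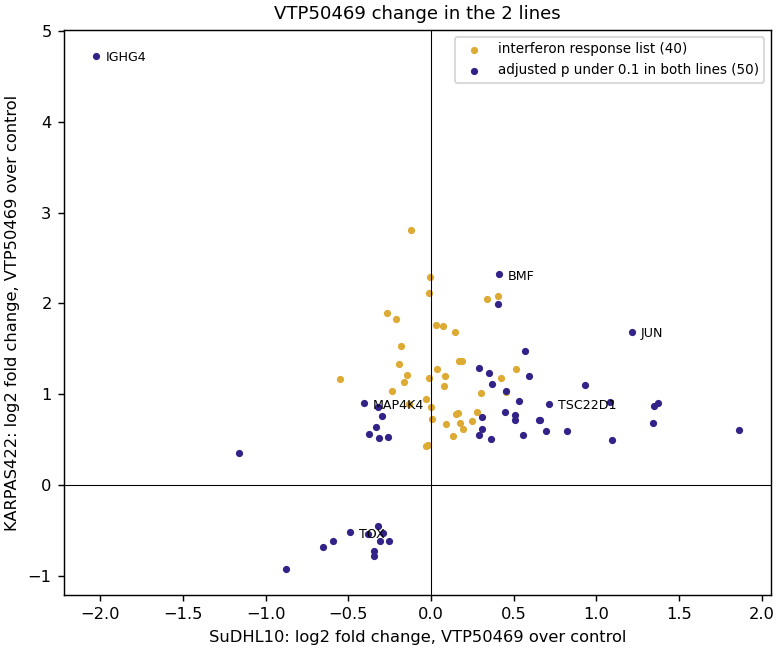
Log2 fold change of VTP50469 over control in KARPAS422 (vertical axis) against SuDHL10 (horizontal axis) for the 40 tested genes of the interferon response list (yellow) and the 50 genes at an adjusted p under 0.1 in both lines (purple). The interferon genes lie above 0 in KARPAS422 and around 0 in SuDHL10, and 41 of the 50 genes share a direction.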

How the data were processed

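Per the labels and the authors' methods, RNA was depleted of ribosomal RNA, and the authors mapped the reads with HISAT2 (2.1.0) to hg38. The deposited table holds whole-number counts from featureCounts (1.6.1), not normalized. The submitters' notes also name CASAVA (1.7) and Picard (2.23.1). No source used here gives the strand setting, the annotation or how multiply mapped reads were counted, so reads of near-identical or overlapping genes cannot be assigned with certainty. The labels name an AllPrep kit for extraction and the methods Trizol. Mitochondrial genes are listed at 0 in all libraries.

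From these counts, genes kept by filterByExpr were normalized by TMM and tested with edgeR (4.0.16, R 4.3.3) in 1 quasi-likelihood model of the 8 SuDHL10 libraries, with treatment and replicate number as terms. KARPAS422 was fitted alike, and both lines together for the difference between them. Same-numbered SuDHL10 libraries deviated together in every pair of groups (r from 0.15 to 0.695, 0.444 for control and VTP50469), above the limit of 0.1, so the numbers were taken to pair them, although no source says so. Each group holds 2 numbers only. Replicate libraries differed by 1.82 to 47.5 chi-square units per gene, so none was counted as deposited more than once. Pair ratios used a pseudocount of 0.5 CPM. The members and lists were chosen with earlier results of these data known, and 40 of 41 written lists had a tested member.

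Named genes are up to 15 called genes per direction by fold and 10 by p with a mean of at least 1 CPM, 3 per list by p, the drug targets and genes the study names, and 5 per difference by p. JUND, KLF6, DUSP6, SPRED2, TTK, PFKP, SYK, INPP5D, PIK3CD and RASGRP3 were named after their values were seen. Counts were simulated for VTP50469 against control in SuDHL10 (10938 genes, 200 changed). At an adjusted p under 0.1 with no minimum fold, the model with the block recovered 85.1% of 1.5-fold, 95.5% of 2-fold and 100% of 4-fold changes with 12 false calls. Without the block it recovered 46.3%, 91% and 100% with 1 false call. The simulated counts kept the replicate effect and the spread fitted with the block. They therefore favored the block by design and cannot show that it suits the data. The alternatives were RLE size factors, totals alone, other filters, no block, DESeq2 (1.42.0), the 2 groups alone, all 16 libraries, other thresholds and each library left out. Gene positions are from GENCODE on hg38, counted from 1.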

Additional observations from a re-analysis of the deposited data

Results flagged for a closer look

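The response to VTP50469 was compared between SuDHL10 cells with and without EPZ-6438, and between SuDHL10 and KARPAS422, and the results below are those whose difference passed at an adjusted p under 0.1 (edgeR). With EPZ-6438 present the change differed for 508 genes with a fold above 1.5, and between the lines for 187. No explanation was tested for any of them, and line and treatment time cannot be told apart in the comparison of lines.

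Among genes that rose with VTP50469 alone, the log2 change with EPZ-6438 minus that without was -0.31 for NREP, -0.32 for IDS, -0.48 for CENPE, -0.81 for KLF6, -0.93 for VEGFA, -0.94 for MXI1, -0.97 for SLC7A11, -1.20 for AFF1, -2.40 for JUN and -0.47 for JUND, and it was 0.36 for BMF. The difference subtracts the rise for which these genes were picked, so a negative sign is favored in advance. JUN, SLC7A11, KLF6, VEGFA and MXI1 rose without EPZ-6438 and fell with it, each at an adjusted p under 0.1.

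Among genes that fell, the same difference was -0.72 for EPHA3, -1.27 for EGR1, -0.39 for KLRD1, -0.88 for TRAC, -0.31 for RASGRP3 and -0.29 for POU2AF1, which fell further with EPZ-6438 present. It was 0.97 for CCDC30, 1.28 for IGKC, 1.39 for IGLC3, 0.30 for PTPN6 and 0.44 for CD79B. These genes were picked for a fall that the difference subtracts, so a positive sign is favored in advance.

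Some genes that did not pass with VTP50469 alone differed as well, by 0.58 for MEN1, -0.30 for PSIP1, -2.01 for PFKFB4, -1.19 for BNIP3 and -1.39 for COL5A1. The differences of -11.90 for PARN, -7.70 for YWHAE and -4.48 for LSM14A come from genes that single libraries set, as does that of 9.39 for PARN between the lines.

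Between the lines, the change in SuDHL10 minus that in KARPAS422 was -2.21 for RNF213, -1.65 for OAS3, -1.61 for MX2 and -2.04 for LGALS3BP, the last 3 from the interferon response list. It was -1.83 for BMF, -1.52 for CD38 and -0.93 for JUND, which rose in both lines and more in KARPAS422. MAP4K4 at -1.24, IGKC at -1.43 and IGHG4 at -6.70 fell in SuDHL10 and rose in KARPAS422, and GNG2 at 0.79 rose in SuDHL10. MAP4K4, IGKC, IGHG4 and GNG2 were picked for their change in SuDHL10, so the sign of the difference is favored in advance.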

How the results depend on the processing

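The number of called genes depended on the block, the depth and the libraries in the model. Against 98 genes higher and 18 lower, edgeR without the replicate block called 0 and 0 (724 genes at an unadjusted p under 0.05), the 2 groups alone gave 201 and 43 with the block and 0 and 0 without it (679 at an unadjusted p under 0.05), DESeq2 gave 27 and 4 with the block and 2 and 3 on the 2 groups without it, and 1 model of all 16 libraries gave 0 and 0 (923 at an unadjusted p under 0.05). Library totals alone called 179 higher, no filter on low counts 167 and 36, a stricter adjusted p of 0.05 gave 36 and 8, and no minimum fold 247 and 216. Chosen after seeing the data, thinning to equal totals gave 47 and 9, leaving out the libraries with both drugs 161 and 32, and leaving out the EPZ-6438 libraries 161 and 30. With 1 of the 4 libraries left out, the counts ranged from 22 to 68 and from 5 to 15.

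The difference with EPZ-6438, 508 genes, was 6 without the block, 244 with DESeq2, 2544 with no minimum fold and 151 to 1062 with 1 library left out. The difference between the lines, 187 genes, was 70 without the block, 302 with DESeq2, 339 with RLE size factors, 313 with library totals alone, 353 with no filter, 365 with a mean of at least 1 CPM, 93 at the stricter p and 82 to 596 with 1 library left out. In each of these the cause was not tested.

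Of 77 named genes that passed, 8 passed whichever of the 4 libraries was left out, and 27 did not pass whichever was left out. Among all named genes and alternatives, the 2 reversals were YWHAE and LSM14A, at -1.38 and -0.12 without the first VTP50469 library, against 6.46 and 3.93 without the second. The shallowest library, the second with VTP50469, limits what can be seen in genes of low level, where a change that did not pass cannot be called absent.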
